A study of Homo sapiens with 12 samples.

Results

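The genes described here are 10 markers of cellular senescence, namely ICAM1, DLC1, LMNB1, GLB1, HMGB1, HMGB2, IGFBP3, IGFBP4, IGFBP6 and IGFBP7, out of 60617 genes in the files. They were chosen by name, as senescence markers other than cytokines and CDK inhibitors together with ICAM1 and DLC1, which the study also measured by qPCR. The rule uses no measured value, but the list was set with earlier results of these data known. The study describes the qPCR after its RNA-seq of these cells and reports ICAM1 and DLC1 as increased. All 10 genes passed the filter on low counts, as did 17620 genes in all. The samples were 12 RNA-seq libraries of SNU308, a wild-type human gallbladder cancer cell line, collected at day 3 after transfection at 25 nM. A group of 4 samples received a non-targeting control siRNA (NTC), 4 received siCEACAM6#2 and 4 received siCEACAM6#3, 2 siRNAs against the cell surface glycoprotein CEACAM6. All 3 groups were transfected, so untransfected cells were not part of the comparison, and a transient knockdown in a single cell line is the model. The labels name Oligofectamine as the reagent and the study's methods name RNAiMAX, and the read layout also differs between both sources. The series describes 4 separate experiments without tying replicate numbers to days or batches, so the p-values measure the spread between these samples only.

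Senescence is a lasting withdrawal from the cell cycle in which cells stay metabolically active. Senescent cells typically lose the nuclear lamina protein lamin B1 and the chromatin proteins HMGB1 and HMGB2, gain lysosomal beta-galactosidase activity, which the GLB1 gene product provides, and secrete factors such as insulin-like growth factor binding proteins. The adhesion receptor ICAM1 often increases on their surface, and DLC1, a tumor suppressor that switches off small GTPases of the cytoskeleton, has been linked to senescence as well.

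The total estimated count was between 21799476 and 22059456 per sample. CEACAM6 was lowered by both siRNAs, with a log2 fold change of -0.82 for siCEACAM6#2 (adjusted p = 2.71e-05) and -0.46 for siCEACAM6#3 (adjusted p = 0.0151), so message remained in every knockdown sample (286 to 438 CPM, against 524 to 619 CPM in NTC). CPM here is a gene's count relative to its library size after TMM scaling, and adjusted p-values are from limma-voom with Benjamini-Hochberg adjustment over all genes tested, called at 0.05. The 6 epithelial markers, keratins and adhesion molecules, had sums of 8210 to 9240 CPM in control samples, 8580 to 9830 CPM in siCEACAM6#2 samples and 8820 to 10100 CPM in siCEACAM6#3 samples. The 3 leukocyte markers stayed at 1.73 CPM or less, and among the 6 fibroblast markers DCN, LUM and PDGFRA were at 0 in some samples and at 0.229 CPM or less in all. COL1A1, a fibroblast collagen gene also in that list, was at 6.86 to 11.4 CPM, and the list summed to 7.62 to 12 CPM over all samples. The 3 endothelial markers summed to 8.62 to 14.2 CPM, mostly from VWF. The share of counts from mitochondrial genes lay between 11.8 and 13.3% in NTC and siCEACAM6#2 samples. It was 12.5% in siCEACAM6#3 replicate 1 and 14.3 to 15.3% in siCEACAM6#3 replicates 2 to 4.

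The RefSeq promoter windows of 3 of these genes are shown first, ICAM1 as the adhesion marker, IGFBP3 as the single marker called by limma-voom, and LMNB1 as the marker with the steadiest NTC level. Windows span 250 bases before to 50 bases after a transcription start in GRCh38.p14, and capitals mark matches on either strand to 4 short motifs. These are the NF-kB site GGAAATTCC, the core promoter motif TATAAA, the motif CCAAT, which reads ATTGG on the opposite strand, and the GC box GGGCGG, which reads CCGCCC there. Sequences run from 5′ to 3′ on the strand of the gene. The ICAM1 window is chr19:10270870-10271169 on the plus strand, IGFBP3 is chr7:45921223-45921522 on the minus strand and LMNB1, the downstream of 2 windows, is chr5:126776886-126777185 on the plus strand.
ICAM1: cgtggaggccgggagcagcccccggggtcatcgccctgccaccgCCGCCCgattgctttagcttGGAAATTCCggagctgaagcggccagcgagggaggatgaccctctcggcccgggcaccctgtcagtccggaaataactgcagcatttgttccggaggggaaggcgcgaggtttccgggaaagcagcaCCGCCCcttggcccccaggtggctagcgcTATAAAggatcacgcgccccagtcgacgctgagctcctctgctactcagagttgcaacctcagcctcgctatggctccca
IGFBP3: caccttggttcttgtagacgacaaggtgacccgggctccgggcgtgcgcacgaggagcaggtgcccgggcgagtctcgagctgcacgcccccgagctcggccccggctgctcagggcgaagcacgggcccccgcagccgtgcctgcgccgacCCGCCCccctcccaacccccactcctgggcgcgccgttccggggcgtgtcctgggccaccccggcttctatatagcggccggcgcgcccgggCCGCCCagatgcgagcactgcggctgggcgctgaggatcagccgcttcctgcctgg
LMNB1: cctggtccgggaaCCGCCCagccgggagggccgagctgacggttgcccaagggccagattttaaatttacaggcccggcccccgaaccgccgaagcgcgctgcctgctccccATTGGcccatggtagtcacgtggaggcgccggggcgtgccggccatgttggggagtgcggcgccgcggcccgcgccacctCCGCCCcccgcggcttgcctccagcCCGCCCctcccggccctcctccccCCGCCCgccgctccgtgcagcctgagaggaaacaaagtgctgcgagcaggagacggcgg
The ICAM1 window held the NF-kB site 186 bases before the start, TATAAA 30 bases before it and 2 GC boxes. In IGFBP3 there were 2 GC boxes and none of the other 3 motifs, whereas the LMNB1 window shown held 1 match to CCAAT and 4 GC boxes. The upstream LMNB1 window, not shown, held none of the 4 motifs. Among 35116 windows of the same length the NF-kB letters occurred in 0.46%, TATAAA in 11.53%, the CCAAT motif in 34.61% and the GC box in 44.95%. These matches describe the letters only, and 7 of the 10 genes had a window in the table used.

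ICAM1 (chromosome 19, 10271093 to 10286615, plus strand, GRCh38) encodes an immunoglobulin-like receptor that binds leukocyte integrins. It had 48.8, 55.4, 61.2 and 65.2 CPM in NTC replicates 1 to 4, 63.1, 81.9, 79.4 and 67.3 CPM with siCEACAM6#2, and 63.2, 87.2, 73.2 and 77.7 CPM with siCEACAM6#3. Replicates 2 to 4 of both knockdown groups lay above every NTC sample, while replicate 1 of each lay inside the NTC range. The level was 1.26 times that of NTC with siCEACAM6#2 (log2 fold change 0.34, SE 0.108, adjusted p = 0.15) and 1.3 times with siCEACAM6#3 (0.38, SE 0.107, adjusted p = 0.178). Neither comparison passed the test, nor did the average of both siRNAs (log2 fold change 0.36, adjusted p = 0.111). DESeq2 called ICAM1 higher in all 3 comparisons, with adjusted p-values of 0.0499, 0.0375 and 0.0131.

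DLC1 (chromosome 8, 13083361 to 13604610, minus strand) encodes a GTPase-activating protein that acts on regulators of the actin cytoskeleton. Its count was low, between 45 and 98 per sample, which limits its precision. The level was 2.01, 2.36, 2.71 and 2.60 CPM in NTC, 3.26, 3.14, 3.42 and 3.76 CPM with siCEACAM6#2, and 3.36, 4.61, 3.80 and 3.98 CPM with siCEACAM6#3. All 8 knockdown samples were therefore above all 4 NTC samples, as they were for 0.732% of all genes tested. The fold was 1.41 with siCEACAM6#2 (log2 fold change 0.49, SE 0.144, adjusted p = 0.116) and 1.62 with siCEACAM6#3 (0.70, SE 0.141, adjusted p = 0.102), and the average of both came closest to the threshold (0.60, adjusted p = 0.0596). Groups that did not overlap were found for 10.8% of all genes tested with siCEACAM6#2, 6.27% with siCEACAM6#3 and 1.61% with both together, counting either direction.

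The separation of DLC1 held in counts and not in TPM, the unit that also divides by transcript length. NTC samples had 0.921, 0.839, 0.869 and 0.633 TPM, siCEACAM6#2 samples 0.809, 0.922, 0.771 and 0.921 TPM, and siCEACAM6#3 samples 1.17, 1.42, 0.953 and 0.799 TPM. On this scale all 3 groups overlapped, and the log2 difference of TPM + 1 was 0.03 with siCEACAM6#2 (adjusted p = 0.943) and 0.19 with siCEACAM6#3 (adjusted p = 0.437). With a pseudocount of 0.1, which shrinks a gene below 1 TPM less, these differences were 0.07 and 0.36. The count per TPM, divided by the sample's median over genes, gives the relative transcript length that the quantification assigned to DLC1, and it ranged over 1.44 to 2.65 among NTC samples, 2.11 to 2.83 among siCEACAM6#2 samples and 1.88 to 3.02 among siCEACAM6#3 samples. Across the 12 samples this ratio varied 2.1-fold for DLC1, against 1.01-fold to 1.26-fold for the other 9 markers. The annotation used here lists 18 transcripts of DLC1, and which of them carried the counts was not tested.

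**Figure D1:**
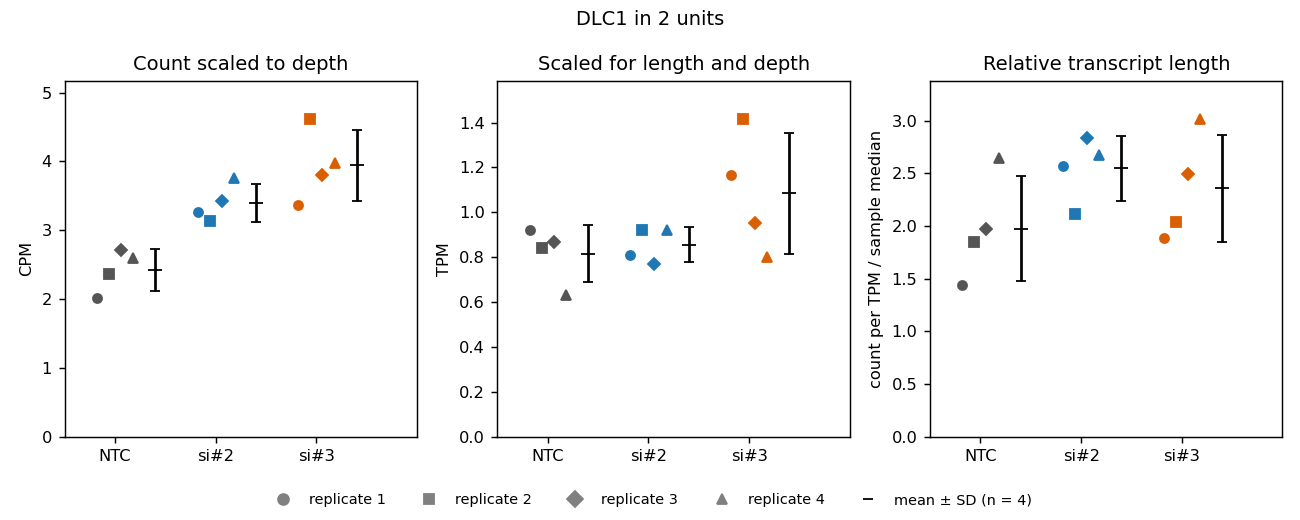
DLC1 per sample as CPM, TPM and relative transcript length (count per TPM over the sample's median), with the 3 groups on the horizontal axis, 1 symbol per replicate and the mean ± SD of 4 samples. The groups separate as CPM (NTC at most 2.71, siRNA samples at least 3.14) and overlap as TPM, while the relative length spreads from 1.44 to 3.02.

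LMNB1 (chromosome 5, 126776623 to 126837020, plus strand) encodes lamin B1, a structural protein of the nuclear lamina. NTC samples had a narrow range of 82.2, 80.8, 81.1 and 79.3 CPM. With siCEACAM6#2 the values were 85.4, 58.3, 61.1 and 65.8 CPM, and with siCEACAM6#3 they were 83.3, 60.6, 67.1 and 67.2 CPM. Replicates 2 to 4 of both groups lay below every NTC sample, and replicate 1 of both lay above every NTC sample. The coefficient of variation was 1.45% in NTC, 18.1% with siCEACAM6#2 and 13.9% with siCEACAM6#3. The log2 fold change was -0.27 (SE 0.103, adjusted p = 0.239) and -0.23 (SE 0.103, adjusted p = 0.387), and neither passed the test.

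HMGB1 and HMGB2 encode high mobility group proteins that bend DNA. HMGB1 (chromosome 13, 30456704 to 30617597, minus strand) had 258 to 274 CPM in NTC. It had 265, 233, 227 and 233 CPM in siCEACAM6#2 replicates 1 to 4 and 272, 215, 253 and 229 CPM with siCEACAM6#3. Again replicate 1 of both groups stayed inside the NTC range while the other 6 knockdown samples lay below it. The log2 fold change was -0.16 (SE 0.068, adjusted p = 0.301) and -0.15 (SE 0.0681, adjusted p = 0.387). HMGB1 has 48 named pseudogenes, which together held 8.89 to 11.5% of the summed count, so its reads cannot be assigned with certainty.

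HMGB2 (chromosome 4, 173331376 to 173334432, minus strand) was at 72.1, 70.0, 68.1 and 69.9 CPM in NTC. The values were 75.3, 65.5, 59.6 and 56.6 CPM with siCEACAM6#2 and 72.0, 51.3, 60.9 and 52.8 CPM with siCEACAM6#3. As for lamin B1, replicates 2 to 4 were below every NTC sample in both groups. The log2 fold change was -0.13 (SE 0.0968, adjusted p = 0.603) and -0.25 (SE 0.0975, adjusted p = 0.306), and neither passed.

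GLB1 (chromosome 3, 32996609 to 33097202, minus strand), the lysosomal beta-galactosidase gene, had 66.3, 61.8, 64.5 and 67.2 CPM in NTC, 65.7, 72.1, 68.9 and 73.9 CPM with siCEACAM6#2, and 65.3, 70.0, 69.3 and 72.3 CPM with siCEACAM6#3. Replicate 1 of both groups was inside the NTC range and the other 6 samples lay above it. The level was 1.08 times that of NTC with siCEACAM6#2 (log2 fold change 0.11, 95% confidence interval -0.0034 to 0.22, adjusted p = 0.382) and 1.07 times with siCEACAM6#3 (0.09, interval -0.022 to 0.21, adjusted p = 0.501).

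The remaining markers encode insulin-like growth factor binding proteins, secreted carriers that hold growth factors in or away from the receptor. IGFBP3 (chromosome 7, 45912245 to 45921874, minus strand) was the single marker called by limma-voom against NTC, higher with siCEACAM6#3. It had 211, 219, 244 and 239 CPM in NTC, 233, 273, 261 and 229 CPM with siCEACAM6#2, and 270, 365, 334 and 352 CPM with siCEACAM6#3. All siCEACAM6#3 samples were above all NTC samples, and replicate 1 was the lowest of them. IGFBP3 was 1.44 times the NTC level with siCEACAM6#3 (log2 fold change 0.52, SE 0.0858, adjusted p = 0.0249) and 1.09 times with siCEACAM6#2 (0.12, SE 0.0864, adjusted p = 0.589). The mitochondrial share of counts given above was also highest in siCEACAM6#3 replicates 2 to 4, and its part in this difference was not tested. The call was lost without any 1 of the NTC samples (adjusted p = 0.199, 0.127, 0.0561 and 0.0778 without replicates 1 to 4), without siCEACAM6#3 replicate 2 (0.105) or replicate 3 (0.133), with only the NTC and siCEACAM6#3 samples in the fit (0.0502) and on log2 TPM + 1 (0.0869), with log2 fold changes of 0.46 to 0.56 in these fits.

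IGFBP7 (chromosome 4, 57030773 to 57110385, minus strand), a protein secreted by senescent cells that also binds other ligands, had 35.7, 36.1, 36.1 and 41.0 CPM in NTC. It had 39.5, 48.6, 49.1 and 42.9 CPM with siCEACAM6#2 and 38.5, 45.7, 43.9 and 47.0 CPM with siCEACAM6#3. Both replicates 1 lay inside the NTC range and the other 6 samples above it. The log2 fold change was 0.27 (SE 0.0813, adjusted p = 0.122) and 0.23 (SE 0.0817, adjusted p = 0.258), and neither passed.

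IGFBP4 and IGFBP6 overlapped between NTC and both knockdown groups. IGFBP4 (chromosome 17, 40443450 to 40457725, plus strand) had 158 to 195 CPM in NTC and 148 to 181 CPM with siCEACAM6#2. With siCEACAM6#3 it spread from 142 CPM in replicate 1 to 225 CPM in replicate 4, a coefficient of variation of 19.4%. The groups overlapped, with log2 fold changes of -0.04 (95% confidence interval -0.29 to 0.20) and 0.09 (-0.15 to 0.33). IGFBP6 (chromosome 12, 53097436 to 53102345, plus strand), a binding protein with preference for IGF2, ranged over 73.0 to 95.9 CPM in control samples, 70.0 to 80.5 CPM in siCEACAM6#2 samples and 70.2 to 92.3 CPM in siCEACAM6#3 samples. Its log2 fold changes were -0.20 (adjusted p = 0.376) and -0.14 (adjusted p = 0.571).

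**Figure D2:**
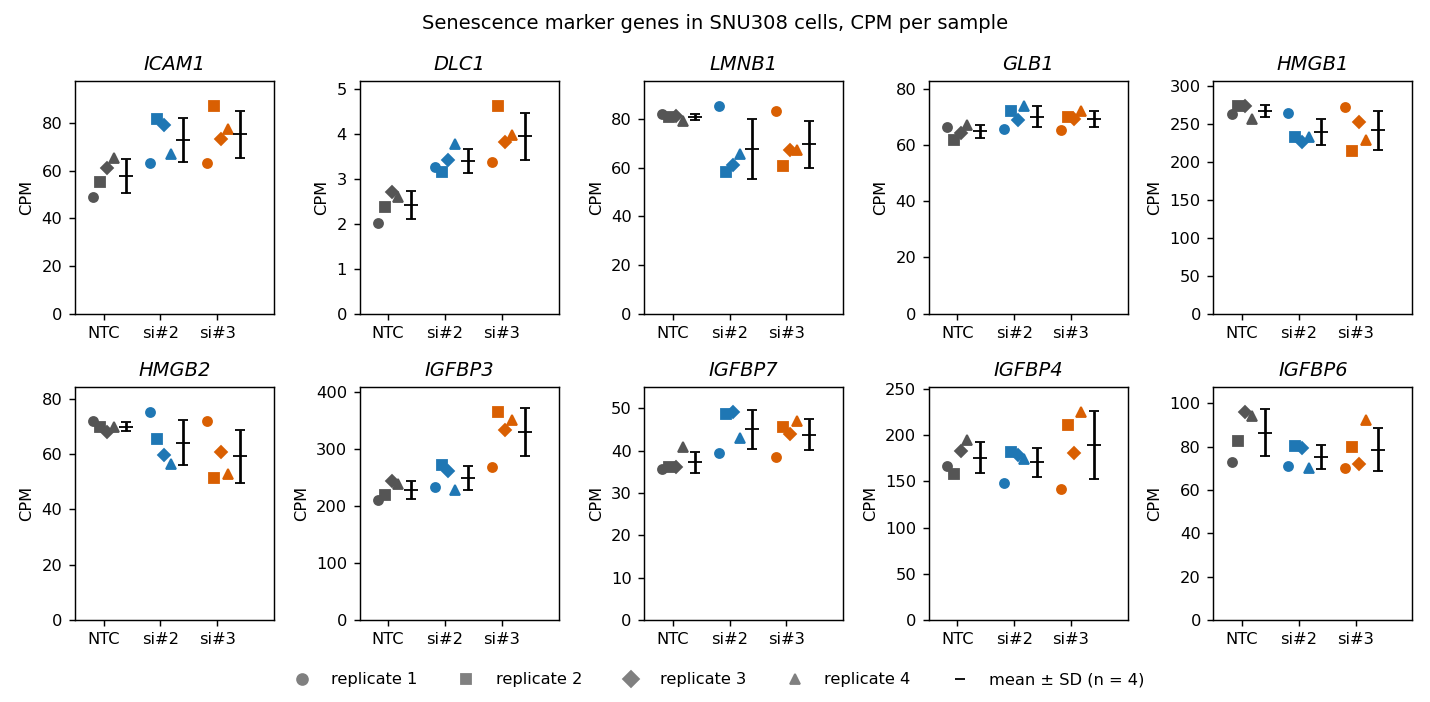
CPM of the 10 senescence marker genes in each sample (si#2, siCEACAM6#2; si#3, siCEACAM6#3), 1 symbol per replicate number, with the mean ± SD of 4 samples. IGFBP3 and DLC1 with siCEACAM6#3 lie wholly above NTC, and the circles for replicate 1 of the knockdown groups lie at or beside the NTC values for LMNB1, HMGB1 and GLB1. For DLC1 these circles lie above NTC, and for IGFBP4 and IGFBP6 below it.

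Counted over the list, 0 of the 10 markers passed the test with siCEACAM6#2 (1.25% of all genes tested were called) and 1 passed with siCEACAM6#3 (0.0681% called). For the average of both siRNAs 0 of 10 passed (0.227% called). At an unadjusted p under 0.05 the counts were 5, 7 and 8 of 10, against 13.6%, 12.5% and 12.9% of all genes. Each count includes ICAM1 and DLC1, which the study measured by qPCR after its RNA-seq. The list was thus not chosen blind to these data. DESeq2 called 2 markers with siCEACAM6#2 (ICAM1 and IGFBP7), 3 with siCEACAM6#3 (DLC1, ICAM1 and IGFBP3) and 4 for the average (these and IGFBP7), where it called 3.95%, 1.72% and 2.63% of the genes it gave an adjusted p. The quasi-likelihood test of edgeR called 0, 1 and 0 markers, and 1.44%, 0.0738% and 0.312% of all genes. The median log2 fold change of the list was 0.03 with siCEACAM6#2 and 0.09 with siCEACAM6#3, beside 0.000169 and -0.00324 over all genes, with 5 and 6 of 10 values above 0. These figures pool opposite directions. LMNB1, HMGB1, HMGB2 and IGFBP6 were below 0 with both siRNAs, and ICAM1, DLC1, GLB1, IGFBP3 and IGFBP7 above 0. Both comparisons use the same NTC samples. In bulk RNA, a change in the number of cells expressing a marker and a change in its amount per cell cannot be told apart.

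**Figure D3:**
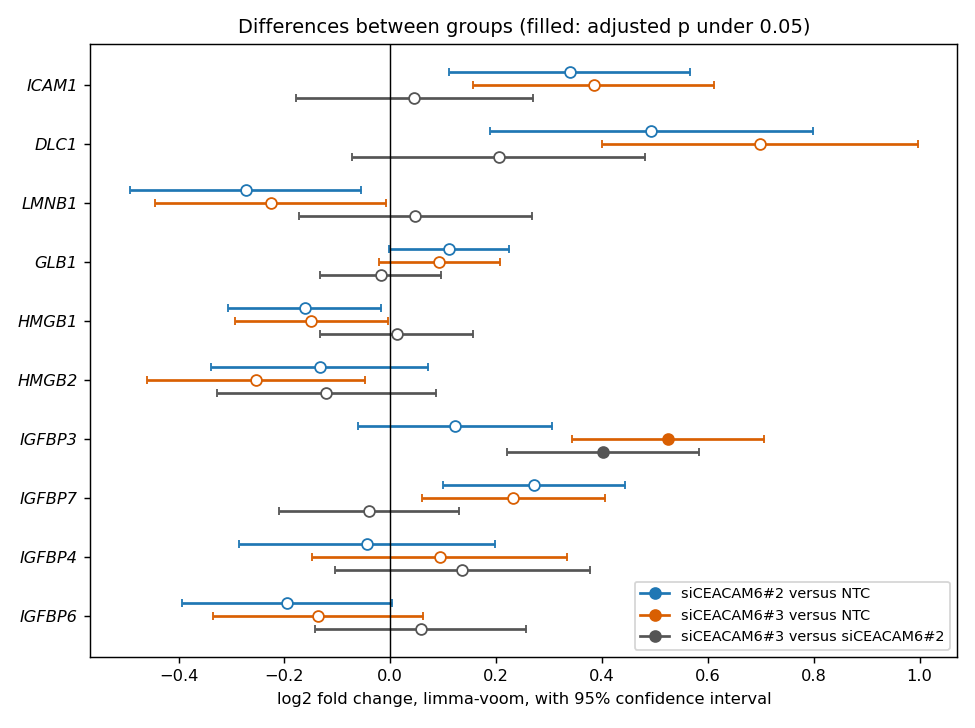
Log2 fold change of the 10 markers from limma-voom with its 95% confidence interval on the horizontal axis, for each siRNA versus NTC and for siCEACAM6#3 versus siCEACAM6#2. Filled points (adjusted p under 0.05) are IGFBP3 with siCEACAM6#3 against NTC (0.52) and against siCEACAM6#2 (0.40).

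In the median over the 10 markers, replicate 1 of both knockdown groups lay nearer to NTC than the other replicates did. It was the nearest replicate for 5 of 10 markers with siCEACAM6#2 and 8 of 10 with siCEACAM6#3. Replicate 1 was away from the NTC mean for DLC1 (log2 ratios 0.43 and 0.48), IGFBP4 (-0.25 and -0.31) and IGFBP6 (-0.28 and -0.30). Relative to the NTC mean, the median absolute log2 ratio over the 10 markers was 0.0946 in siCEACAM6#2 replicate 1 and 0.215 to 0.234 in replicates 2 to 4. With siCEACAM6#3 it was 0.0912 in replicate 1 and 0.249 to 0.367 in replicates 2 to 4. Replicate 1 had 5 of 10 markers outside the NTC range in each group, against 8 in each of the other siCEACAM6#2 samples and 9 in each of the other siCEACAM6#3 samples. Of all genes tested, 49.8% and 50.6% were outside the NTC range in replicate 1 of the respective groups, and 47.4 to 56.1% and 53.2 to 63.8% in replicates 2 to 4. CEACAM6 itself was lowered in replicate 1 of both groups, at log2 ratios of -0.71 and -0.45, within the span of the other replicates of siCEACAM6#3 (-0.58 to -0.40) and slightly short of that of siCEACAM6#2 (-1.01 to -0.75). The 10 proliferation markers, mitotic and replication genes such as MKI67 and CCNB1, moved alongside. Their median log2 ratio was -0.02 in replicate 1 of both knockdown groups and -0.382 to -0.225 in the other 6 samples. The cause of this split was not tested.

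**Figure D4:**
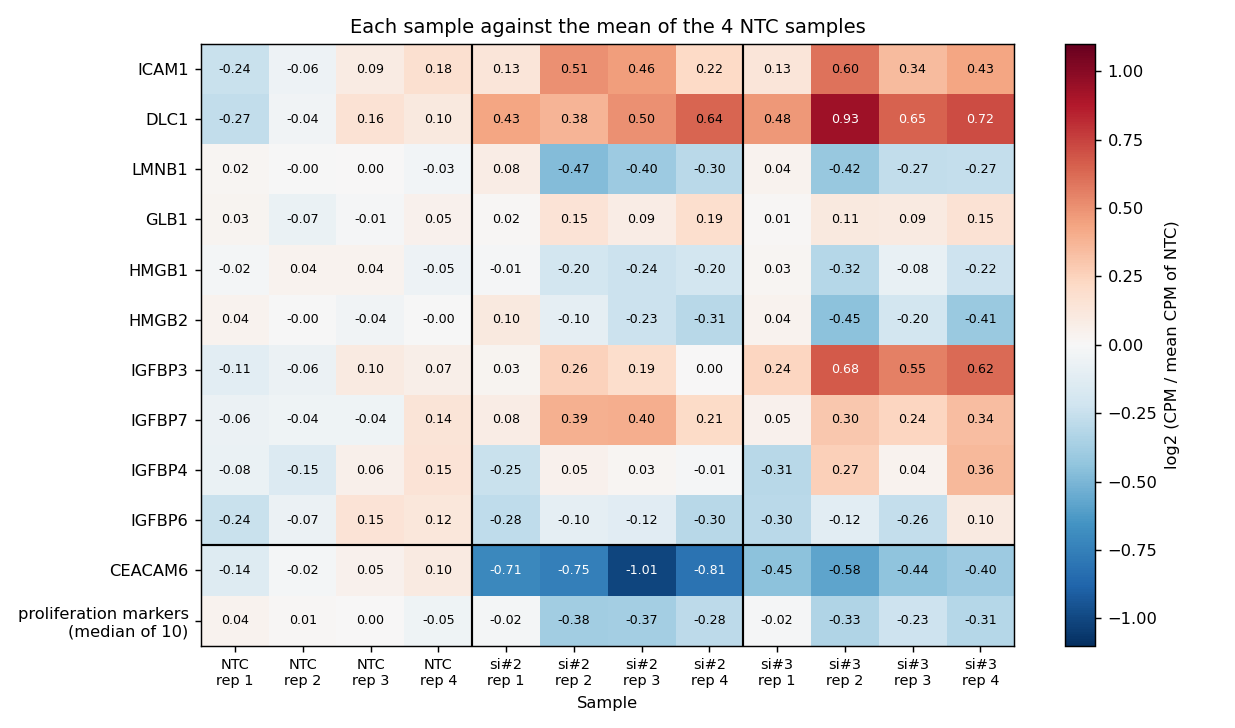
Log2 ratio of CPM to the mean of the 4 NTC samples for the 10 markers, CEACAM6 and the median of 10 proliferation markers (vertical axis) in each of the 12 samples (horizontal axis). In replicate 1 of both siRNA groups LMNB1, GLB1 and HMGB1 (within 0.0785 of 0) and the proliferation median (-0.02) are near 0, whereas CEACAM6 is lowered (-0.71 and -0.45). DLC1 (0.43 and 0.48), IGFBP4 (-0.25 and -0.31) and IGFBP6 (-0.28 and -0.30) are also away from 0 there.

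Without replicate 1 in all 3 groups, a fit chosen after seeing the data, LMNB1 was called lower with siCEACAM6#2 (log2 fold change -0.38, adjusted p = 0.0119) and with siCEACAM6#3 (-0.31, adjusted p = 0.0373). In that fit HMGB2 (-0.33, adjusted p = 0.0498) and DLC1 (0.69, adjusted p = 0.0498) were also called with siCEACAM6#3. Replicate 1 of both knockdown groups was not below the NTC range for LMNB1 or HMGB2, so leaving it out by itself favours these calls of lower. IGFBP3 kept its call (0.59, adjusted p = 0.00119). That fit called 1.36% of all genes with siCEACAM6#2 and 0.972% with siCEACAM6#3. Leaving out replicate 2, 3 or 4 in all groups instead left no marker called in any comparison with NTC. Those fits called 0.209%, 0.0226% and 0.593% of all genes with siCEACAM6#2 and 0%, 0.0113% and 0.0509% with siCEACAM6#3. For the average they called 0.00566%, 0.0282% and 0.0904%, so the loss of calls was not particular to the markers. The log2 fold changes with siCEACAM6#3 were then 0.46, 0.55 and 0.51 for IGFBP3 and 0.62, 0.77 and 0.73 for DLC1.

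The direct comparison of both siRNAs gave 1 of 10 markers called, IGFBP3, where 1.47% of all genes tested were called. IGFBP3 was 1.32 times higher with siCEACAM6#3 than with siCEACAM6#2 (log2 difference 0.40, SE 0.0856, adjusted p = 0.0263), although replicate 1 of siCEACAM6#3 (270 CPM) lay below replicate 2 of siCEACAM6#2 (273 CPM). This call was lost without siCEACAM6#2 replicate 1 (adjusted p = 0.0894), 3 (0.0629) or 4 (0.0917) and without siCEACAM6#3 replicate 2 (0.0717), 3 (0.0937) or 4 (0.0616), at log2 differences of 0.35 to 0.43. For the other 9 markers the difference did not pass the test. Its 95% confidence interval ran from -0.18 to 0.27 for ICAM1, from -0.073 to 0.48 for DLC1, from -0.17 to 0.27 for LMNB1 and from -0.13 to 0.095 for GLB1. CEACAM6 was 1.28 times higher with siCEACAM6#3 (adjusted p = 0.016), so the depth of knockdown differed between the siRNAs.

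Per unit of transcript length, HMGB1 was the most abundant marker in NTC, at 275 ± 10.8 TPM (SD, n = 4). IGFBP6 (149 ± 14.2 TPM) and IGFBP3 (135 ± 6.45 TPM) followed with overlapping ranges, then IGFBP4 (109 ± 8.56 TPM), HMGB2 (89.0 ± 4.85 TPM) and GLB1 (45.0 ± 2.11 TPM). IGFBP7 (38.2 ± 2.60 TPM) and LMNB1 (38.0 ± 1.30 TPM) overlapped, ICAM1 stood at 26.7 ± 3.50 TPM and DLC1 was lowest at 0.815 ± 0.126 TPM. With siCEACAM6#2, IGFBP3 (144 ± 10.3 TPM) was above IGFBP6 (130 ± 8.47 TPM) in mean and the ranges overlapped. With siCEACAM6#3, IGFBP3 (187 ± 19.9 TPM) stood above IGFBP6 (131 ± 12.1 TPM) with no overlap. In both knockdown groups ICAM1 (32.9 ± 3.12 and 33.4 ± 4.49 TPM) and LMNB1 (31.7 ± 5.84 and 32.3 ± 6.22 TPM) overlapped, which they did not in NTC.

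**Figure D5:**
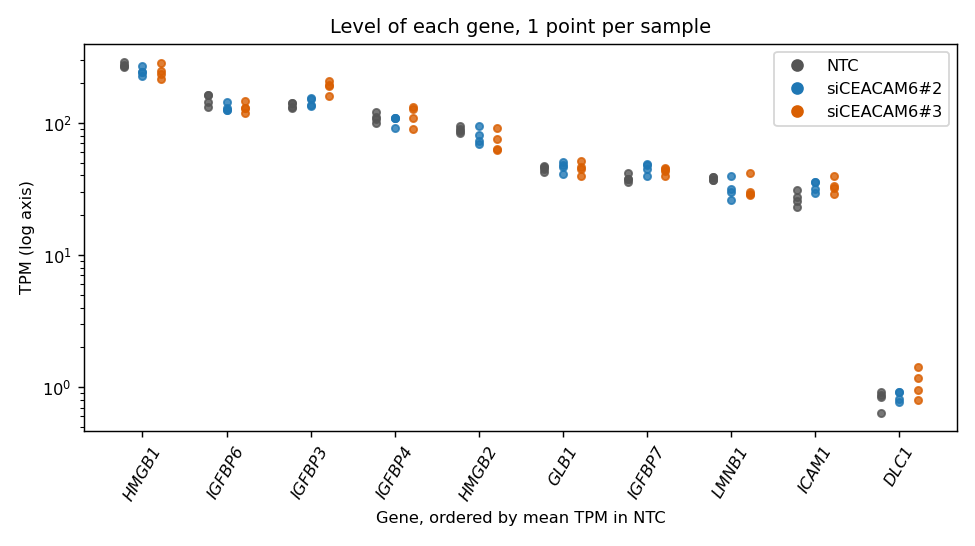
TPM (log axis) of each marker in every sample, with genes on the horizontal axis ordered by mean TPM in NTC and groups by colour. HMGB1 is highest and DLC1 lowest in all 3 groups, and IGFBP3 is above IGFBP6 in mean with both siRNAs, without overlap with siCEACAM6#3.

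Across the 12 samples, which share the 3 group means and so are not independent points, log2 CPM of ICAM1 correlated with IGFBP7 (r = 0.921) and DLC1 (r = 0.84) and inversely with LMNB1 (r = -0.855). LMNB1 correlated with HMGB1 (r = 0.909) and inversely with IGFBP7 (r = -0.903), while IGFBP6 stood apart (r = 0.128 with ICAM1). Among 11568 genes, those most like ICAM1 were LIPH, a phospholipase (r = 0.974), C15orf48 (r = 0.97) and HES2, a transcriptional repressor (r = 0.968). Among 11569 genes, those most like DLC1 included OLR1, a receptor for oxidized lipoprotein (r = 0.913), and GALNT5, a glycosyltransferase (r = 0.902). These genes were picked for likeness to ICAM1 or DLC1 over the same 12 samples, so their group differences largely follow from that choice. GALNT5 was higher with both siRNAs (log2 fold change 0.36, adjusted p = 0.005, and 0.48, adjusted p = 0.00126). OLR1 rose with siCEACAM6#3 (1.46, adjusted p = 0.0159) and was at 0.93 with siCEACAM6#2 (adjusted p = 0.0713). LIPH, C15orf48 and HES2 did not pass the test in either comparison.

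Related genes were taken from lists by function. Over all genes tested, 1.25% were called with siCEACAM6#2 and 0.0681% with siCEACAM6#3, so 0 called genes in a short list says little about it. In the nuclear lamina and envelope list 0 of 10 genes were called with either siRNA, with medians of -0.03 and -0.07 on the log2 scale. LMNB2, the other B-type lamin gene, had log2 fold changes of -0.24 (adjusted p = 0.0529) and -0.24 (adjusted p = 0.138), and TMPO, a lamina-associated protein gene, -0.25 (adjusted p = 0.241) and -0.20 (adjusted p = 0.412). LMNA, encoding lamins A and C, was called lower with siCEACAM6#3 than with siCEACAM6#2 (-0.25, adjusted p = 0.0205), from 541 ± 10.4 to 458 ± 28.6 CPM. In the list of other HMG chromatin proteins 0 of 8 were called, with medians of -0.03 and -0.04. HMGN4 was at 0.20 and 0.04 (adjusted p = 0.23 and 0.841) and HMGN2 at -0.10 and -0.19 (adjusted p = 0.701 and 0.419).

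Of 16 genes for growth factor binding and signalling, 8 passed the low-count filter. With siCEACAM6#2, 1 was called higher and 1 lower, where 0.613% and 0.641% of all genes tested were called. With siCEACAM6#3 none of the 8 was called (0.0681% of all genes). At an unadjusted p under 0.05 there were 4 and 2 of 8, against 13.6% and 12.5% of all genes. IRS2, an adaptor of the insulin and IGF1 receptors, rose with siCEACAM6#2 from 16.0 ± 1.05 to 24.9 ± 2.03 CPM (log2 fold change 0.64, adjusted p = 0.00701) and was at 18.1 ± 3.47 CPM with siCEACAM6#3 (0.16, adjusted p = 0.575). IGF2R, which carries IGF2 to lysosomes, fell with siCEACAM6#2 from 102 ± 2.63 to 83.1 ± 7.51 CPM (-0.30, adjusted p = 0.0379) and was at 103 ± 8.02 CPM with siCEACAM6#3 (0.02, adjusted p = 0.939). The direct comparison of both siRNAs called IRS2 lower (-0.48, adjusted p = 0.0287) and IGF2R higher (0.32, adjusted p = 0.0248) with siCEACAM6#3. IGFBP2, a further binding protein, was at log2 fold changes of 0.29 (adjusted p = 0.157) and 0.33 (adjusted p = 0.177).

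None of 16 lysosomal genes was called with either siRNA, with medians of -0.04 and 0.04. Of all genes tested, 1.25% and 0.0681% were called in these comparisons. At an unadjusted p under 0.05 there were 3 and 2 of 16 lysosomal genes, against 13.6% and 12.5% of all genes. CTSD, a lysosomal protease gene, was at -0.28 (adjusted p = 0.0736) with siCEACAM6#2 and -0.04 (adjusted p = 0.857) with siCEACAM6#3. Of 14 adhesion receptors, ICAM1 ligands and linker proteins, 11 passed the filter and 0 were called, with medians of 0.07 and 0.05. EZR, which links membrane proteins to actin, was at 0.09 (adjusted p = 0.404) and 0.12 (adjusted p = 0.263), and the integrin gene ITGAM, at under 1 CPM in the mean of each group, at 1.00 (adjusted p = 0.131) and 0.55 (adjusted p = 0.505).

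In the list around DLC1, 13 of 14 genes for GTPase-activating proteins, small GTPases and their partners passed the filter. Of these, 1 was called lower with siCEACAM6#2 and 0 with siCEACAM6#3. Over all genes tested, 0.641% were called lower with siCEACAM6#2, and 1.25% and 0.0681% in either direction with siCEACAM6#2 and siCEACAM6#3. TNS1, a focal adhesion tensin, fell with siCEACAM6#2 from 21.8 ± 1.83 to 15.8 ± 1.99 CPM (-0.47, adjusted p = 0.0178) and was at -0.19 (adjusted p = 0.4) with siCEACAM6#3. The DLC1 relative STARD13 was at 0.25 (adjusted p = 0.598) and 0.42 (adjusted p = 0.354). Among 13 heterochromatin genes 0 were called, with medians of -0.02 and -0.03, and the histone methyltransferase gene SUV39H1 was at -0.23 (adjusted p = 0.18) and -0.27 (adjusted p = 0.179). CBX5, which binds the mark that SUV39H1 sets, was at -0.19 (adjusted p = 0.162) and -0.03 (adjusted p = 0.894).

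The 10 proliferation markers were all below NTC in the mean with both siRNAs, with medians of -0.266 and -0.225. Of these, 1 was called lower with siCEACAM6#2, 0 with siCEACAM6#3 and 1 for the average, where 1.25%, 0.0681% and 0.227% of all genes were called. The counts at an unadjusted p under 0.05 were 8, 10 and 10 of 10, against 13.6%, 12.5% and 12.9% of all genes. CCNB1, the mitotic cyclin B1, fell with siCEACAM6#2 from 70.3 ± 1.34 to 55.7 ± 6.39 CPM (-0.34, adjusted p = 0.0299) and was at 56.0 ± 4.51 CPM with siCEACAM6#3 (-0.33, adjusted p = 0.109). PLK1, a mitotic kinase, was at -0.35 (adjusted p = 0.0795) and -0.32 (adjusted p = 0.18). Among cell type markers, KRT18 and KRT7, epithelial keratins, were at 0.17 and 0.12 with siCEACAM6#2 and at 0.05 and 0.21 with siCEACAM6#3, none called. The fibroblast marker COL1A1 (0.19 and -0.01) and the leukocyte marker CD14 (-0.50 and -0.33) were not called either, nor was PECAM1 (0.61 and 1.03). VWF was called lower with siCEACAM6#2 (-0.44, adjusted p = 0.0419), and CDH5, at 0.752 to 1.88 CPM in the group means, was called higher with siCEACAM6#3 than with siCEACAM6#2 (1.31, adjusted p = 0.016).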

How the data were processed

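RNA-seq was done on 12 SNU308 samples. According to the study's methods and the submitters' processing notes, the authors trimmed reads with Trim Galore 0.6.4 and quantified transcripts of GRCh38.p13 with kallisto (version 0.4.6 in the notes). The GENCODE release was not given in the sources used here. The authors deposited estimated counts per gene, which were rounded to whole numbers, and TPM per gene. Symbols and coordinates came from GENCODE 44 on GRCh38, and 99.57% of gene identifiers matched.

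Counts were filtered by group and fitted with limma-voom in 1 model of the 3 groups (R 4.3.3, limma 3.58.1, edgeR 4.0.16), with adjusted p under 0.05 as the call. TPM fits used log2(TPM + 1) and a pseudocount of 0.1. Other fits used DESeq2 1.42.0 and edgeR's quasi-likelihood test. The model was tested on simulated data with changes larger than those of the markers, so that test does not cover differences of their size. The genes and lists were chosen with earlier results of these data known. Beyond the 10 markers, the text names every called list gene, the 2 of each list with the smallest p in the average comparison, and the 3 genes most like ICAM1 and DLC1 (Pearson r, mean CPM of at least 5), except for 2 genes that are not reported here. Leaving out a replicate number in all groups was chosen after seeing the data. Promoter windows came from RefSeq, without those on chromosome 8.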

Additional observations from a re-analysis of the deposited data

Results flagged for a closer look

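A test for samples far from their group, which chance passes in about 1 of 20 groups, picked out HMGB1 in siCEACAM6#2 replicate 1, at 265 CPM against 227 to 233 CPM in the other 3 samples, and IGFBP7 in NTC replicate 4, at 41.0 CPM against 35.7 to 36.1 CPM. The direct test of both siRNAs was searched over the markers, CEACAM6 and the lists by function, without the cell type markers. It called 1.47% of all genes tested. As siCEACAM6#3 minus siCEACAM6#2 on the log2 scale, those found were CEACAM6 (0.355), IGFBP3 (0.402), IGF2R (0.317), LMNA (-0.245) and IRS2 (-0.478). IGFBP3, IGF2R and CEACAM6 were thus higher, and LMNA and IRS2 lower, with siCEACAM6#3. Of the cell type markers, CDH5 was called higher as well (1.31). The part of the unequal knockdown of CEACAM6 in these differences was not tested.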

How the results depend on the processing

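The number of markers called with siCEACAM6#2, with siCEACAM6#3, for the average and between the siRNAs (0, 1, 0 and 1) was unchanged with edgeR's quasi-likelihood test, other library scaling and other count filters. With DESeq2 it was 2, 3 and 4 against NTC (1 between the siRNAs), where 3.95%, 1.72%, 2.63% and 4.01% of genes with an adjusted p were called. With sample quality weights it was 5, 2 and 5 against NTC (6.36%, 2.17% and 5.1% of all genes). With only the groups compared in the fit it was 0 with siCEACAM6#3 (0.0583%) and 0 between the siRNAs (0.333%), as on both TPM scales (0.0227% with siCEACAM6#3 on both). Leaving out 1 sample, or 1 replicate number in all groups, gave 0 to 2, 0 to 4, 0 to 4 and 0 to 1. The share of all genes called in these fits was 0.0226 to 2.03%, 0 to 1.44%, 0.00566 to 1.14% and 0.0508 to 3.64%. Without siCEACAM6#3 replicate 1, DLC1 (0.78), ICAM1 (0.47) and IGFBP3 (0.63) were called against NTC on the log2 scale, and without siCEACAM6#2 replicate 1, IGFBP7 (0.34) and LMNB1 (-0.39) were. These fits called 1.44% and 1.8% of all genes in the respective comparisons. For the average, 4 markers were called without replicate 1 of siCEACAM6#3 (DLC1, ICAM1, IGFBP3 and IGFBP7) or of siCEACAM6#2 (DLC1, ICAM1, IGFBP3 and LMNB1), and DLC1 (0.59) without siCEACAM6#3 replicate 4. Of all genes, 1.06%, 1.14% and 1.06% were called for the average in these fits.

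A fit with a replicate block gave 1, 3, 3 and 1 markers called, where 1.61%, 0.494%, 0.67% and 1.98% of all genes were called. Against NTC these were ICAM1 with siCEACAM6#2, and DLC1, ICAM1 and IGFBP3 with siCEACAM6#3 and for the average. The adjusted p of ICAM1 in that fit was 0.0404, 0.0449 and 0.0234 against NTC. Same-numbered samples of different groups correlated at -0.0602 to 0.224 in their deviations, above 0.1 in 2 of 12 pairs. Differently numbered samples correlated at -0.251 to 0.179, above 0.1 in 3 of 36 pairs. The highest value, 0.224, was between replicate 1 of both siRNA groups. The best match carried the same number in 5 of 24 cases, so the numbers do not establish a pairing.

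Differences near 0 changed sign. IGFBP4 ran from -0.122 to 0.0279 with siCEACAM6#2, from -0.0107 to 0.232 with siCEACAM6#3 and from -0.0663 to 0.104 for the average as samples were left out, the last being -0.0124 and -0.0126 with TPM pseudocounts of 1 and 0.1. Between the siRNAs these ranges were -0.0285 to 0.13 for ICAM1 (-0.000743 with sample weights), -0.0405 to 0.164 for LMNB1, -0.0499 to 0.0124 for GLB1, -0.0426 to 0.0686 for HMGB1, -0.102 to 0.0238 for IGFBP7 and -0.0553 to 0.123 for IGFBP6 (-0.0118 with sample weights). For HMGB1 it was also -0.00662 with library size alone, -0.0111 on both TPM scales and -0.00565 with its pseudogenes added. The cause of these changes was not tested. Counting error limits DLC1 most, at 45 to 98 counts per sample.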
